A study of Bos taurus with 6 samples.

Results

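Subcluster 2 is 1 of the 4 groups into which the authors sorted the T-cells of calf distal pulmonary arteries (dPAs), and the study placed it among its CD4+ T-cells. Its members were chosen by 1 label only, the authors' subcluster number deposited with each cell. This gave 268 of 877 T-cells (30.6%), and subclusters 1, 3 and 4 held 270, 173 and 166 cells. The cells came from fresh dPAs under 2 mm wide of male Holstein dairy calves that were 2 weeks old. Control (CO) calves were compared with calves with pulmonary hypertension (PH), which had been exposed to hypoxia for 14 days, with 3 calves in each group by the labels. Vessels were digested to single cells and sequenced with a droplet method that tags every captured mRNA with its own random label, a unique molecular identifier (UMI), and UMIs rather than reads are counted. CO replicate 3 was not analysed here.

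CD4+ T-cells recognise antigen through the T-cell receptor, whose CD3 chains include CD3E and whose signal passes through the kinase ZAP70. They help other immune cells by secreting cytokines. Regulatory T-cells (Tregs) are the CD4+ cells that express the transcription factor FOXP3 and hold back immune responses, and in the vessel wall T-cells lie mainly in the adventitia, next to fibroblasts.

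The label could not be checked against CD3E, ZAP70, CD4 or FOXP3. The 16514 rows of the expression table carry no gene names, so none of these markers could be located and the rows are described by their values only. Whether the cells of subcluster 2 are CD4+ or hold Tregs was not tested, and the group is called by its number.

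Subcluster 2 was found in 4 of the 5 calves with T-cells. Of its cells, 24 were from CO replicate 1, 126 from CO replicate 2, 53 from PH replicate 1 and 65 from PH replicate 2. None of the 16 T-cells of PH replicate 3 belonged to it (0 of 16), which allows a share of up to 18.8%. Since 84% of the 150 CO cells were from CO replicate 2, comparisons were made within a calf or over calves, not over cells. The UMIs summed over all T-cells of a calf ranged from 178163 to 2717789, and 0 cell barcodes were shared between libraries.

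Subcluster 2 made up 48.0% of the T-cells of CO replicate 1, 28.8% of those of CO replicate 2, and 33.8%, 30.0% and 0% of those of PH replicates 1 to 3. The highest share was in a CO calf and the lowest in a PH calf, but both PH calves with such cells lay between the CO calves. The mean was 38.4% ± 13.6 in CO (SD, n = 2) and 21.2% ± 18.5 in PH (SD, n = 3), which is -17.2 percentage points in PH against CO (exact permutation test over calves, two-sided, p = 0.6, where the smallest p of 2 against 3 calves is 0.2). Without PH replicate 3 the difference was -6.56 points, and without CO replicate 1 it was -7.60 points. All such p-values measure the spread between calves. Among the cells of subclusters 1 and 2, which the study called CD4+, subcluster 2 held 82.8% in CO replicate 1, 46.0% in CO replicate 2, 59.6% in PH replicate 1 and 48.9% in PH replicate 2. In PH replicate 3 it held 0 of 13 such cells, which allows a share of up to 23.1%.

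The cells of subcluster 2 held less RNA, as UMIs, than the other T-cells of their own calf. The median was 5921.5 UMIs per cell in CO replicate 1, 5476.5 in CO replicate 2, 2573 in PH replicate 1 and 3225 in PH replicate 2. In the other T-cells of these calves it was 7152.5, 5812, 4542.5 and 3809.5. The median was thus lower in subcluster 2 in 4 of 4 calves, at 0.566 to 0.942 times that of the other T-cells. Against subcluster 1, the other group called CD4+, the ratio was 0.373 to 0.819. Against subcluster 4 it was 0.822 to 1.09, with 2 calves on each side. The number of genes with a UMI was also lower in 4 of 4 calves, with medians of 1963, 1532, 1223 and 1187 genes against 2226.5, 1603, 1353.5 and 1199. Against subcluster 4 alone, however, it was higher in subcluster 2 in 3 of 4 calves, at 0.866 to 1.23 times the median. Since the clusters were made from the expression of these cells, differences between subclusters are given as descriptions without a test.

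The percent of UMIs from mitochondrial genes was higher in subcluster 2 in the same 4 calves. Its median was 3.03% in CO replicate 1, 3.98% in CO replicate 2, 3.15% in PH replicate 1 and 4.88% in PH replicate 2, against 2.33%, 3.47%, 2.63% and 4.07% in the other T-cells. Cells above 10% made up 12.5%, 13.5%, 30.2% and 18.5% of subcluster 2. In the other T-cells the same share was 0% (of 26 cells), 7.40%, 15.4% and 6.58%. Single subclusters made 2 exceptions: in PH replicate 1 the median of subcluster 3 was higher (3.59%), and in CO replicate 2 subcluster 4 had more cells above 10% (15.4%). Shallower cells tended to have the higher mitochondrial percent: across the cells of subcluster 2 within a calf the Spearman rho of UMIs and mitochondrial percent was -0.60 to -0.46 (24 to 126 cells that share a library; a description).

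Subcluster 2 was itself made of a deeper and a shallower kind of cell. In the authors' finer clustering at resolution 1.4 (a setting that fixes how finely cells are divided), 205 of its cells lay in cluster 12 and 63 in cluster 33. The 205 cells had a median of 5621 UMIs and the 63 cells of 1184, with the deepest of the 63 at 2614. A mitochondrial percent above 10 was found in 73.0% of the 63 cells and in 1.0% of the 205. Low depth and a high mitochondrial percent are common signs of damaged cells, and their part in the results below was not tested beyond the values without cluster 33.

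Cluster 33 held 131 T-cells in all, and 48.1% of them were in subcluster 2. Its share of subcluster 2 was 37.5% (9 of 24 cells) in CO replicate 1, 16.7% (21 of 126) in CO replicate 2, 39.6% (21 of 53) in PH replicate 1 and 18.5% (12 of 65) in PH replicate 2. Of the other T-cells it took 3.85%, 8.04%, 27.9% and 7.89%. Cluster 33 was therefore more frequent in subcluster 2 in 4 of 4 calves, and the calves with the higher share were 1 CO and 1 PH calf. Against subcluster 4 alone it was more frequent in 2 of 4 calves.

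PH replicate 1 had the widest spread of depth. There, 21 of the 53 cells held more than 2 times the calf's median of UMIs, against 2 of 24, 9 of 126 and 3 of 65 cells in the other calves. Its cells in cluster 12 had a median of 7442 UMIs and its cells in cluster 33 of 1134, so that the median of 2573 lay between these groups of cells. Cells under 1000 UMIs numbered 4, 7, 8 and 6 in CO replicates 1 and 2 and PH replicates 1 and 2.

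**Figure D1:**
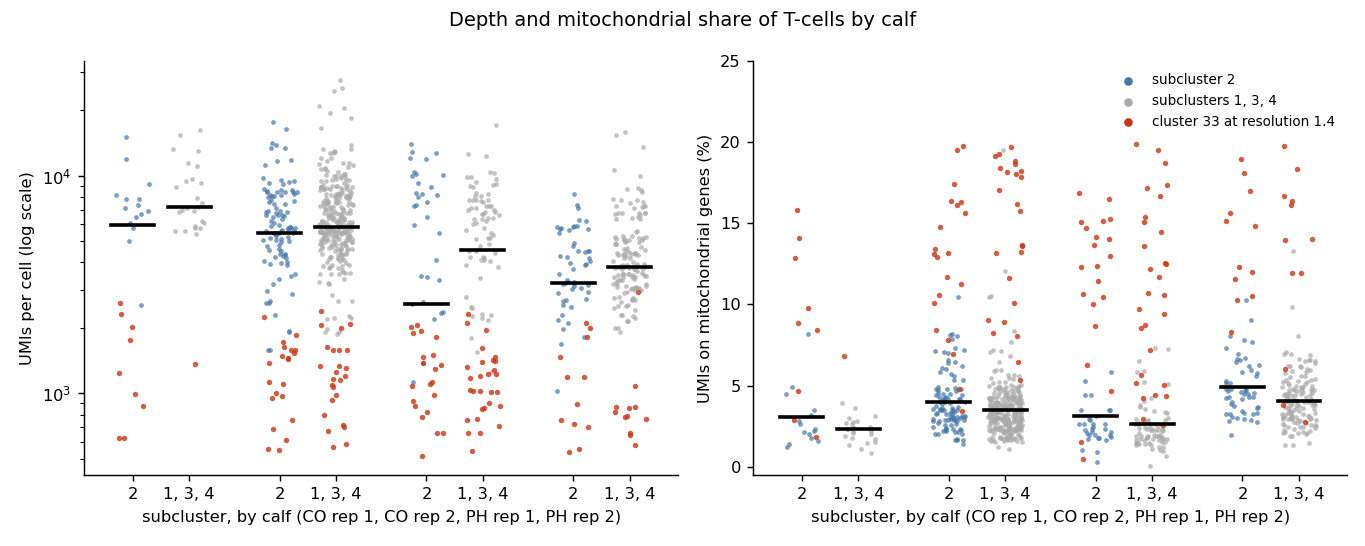
UMIs per cell on a log axis (left) and percent of UMIs on mitochondrial genes (right) for each cell of subcluster 2 and of subclusters 1, 3 and 4 in 4 calves, with calf medians as black bars and the cells of cluster 33 in red. The cells of cluster 33 in subcluster 2 sit at or below 2614 UMIs, and they hold most of its mitochondrial percents above 10.

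Between CO and PH, the depth of subcluster 2 differed without overlap of the calves. The mean of the calf medians was 5699 ± 315 UMIs in CO and 2899 ± 461 in PH (SD, n = 2 each), a difference of -2800 UMIs (two-sided exact permutation test, p = 0.333, adjusted p = 0.5 over 6 cell measures). A p of 0.333 is the smallest that 2 against 2 calves allow. Without cluster 33 the calf medians were 7102 and 5810 in CO against 7442 and 3885 in PH, which overlap, and the difference was -792.5 UMIs (exact p = 1). Genes with a UMI also did not overlap, at 1747.5 ± 305 in CO and 1205 ± 25.5 in PH (difference -542.5, exact p = 0.333). Without cluster 33 they overlapped (difference -370, exact p = 0.667), and the difference was -327 without CO replicate 1 and -268 at middle depth. The mitochondrial percent did overlap, at 3.51 ± 0.671 in CO and 4.01 ± 1.23 in PH (exact p = 0.667).

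Whether these differences were larger in subcluster 2 than in the other T-cells was tested on the gap between them within each calf. The median of its UMIs minus that of the other T-cells was -783 ± 633 in CO and -1277 ± 979 in PH (SD, n = 2 each, two-sided exact permutation test, p = 0.667). The same gap in mitochondrial percent was 0.604 ± 0.140 points in CO and 0.662 ± 0.205 in PH (exact p = 0.667). Over 6 measures of this kind the adjusted p was 0.8 to 1. With 2 against 2 calves the smallest exact p is 0.333, so no gap could pass and the test could not decide.

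The authors also deposited a cell cycle phase for each cell, called from 1 score for genes of the S phase (DNA synthesis) and 1 for genes of the G2 and M phases (preparation and division). A cell was called G1 where both scores were below 0, which held in 877 of 877 cells. In subcluster 2, G1 was called in 3 of the 24 cells from CO replicate 1 (12.5%, Clopper-Pearson 95% interval 2.66 to 32.4) and in 28 of the 126 from CO replicate 2 (22.2%, 15.3 to 30.5). In PH replicate 1 it was called in 18 of 53 cells (34.0%, 21.5 to 48.3) and in PH replicate 2 in 21 of 65 (32.3%, 21.2 to 45.1). Both PH calves lay above both CO calves. These intervals cover counting error only.

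The G1 share averaged 17.4% ± 6.87 in CO and 33.1% ± 1.17 in PH (SD, n = 2 each), 15.8 percentage points more in PH (exact permutation test over calves, two-sided, p = 0.333, adjusted p = 0.5 over 3 phases). It was 20.5 points without cluster 33 and 23.6 points in cells of middle depth (2025 to 6907.75 UMIs). The S share was 40.3% in CO and 26.4% in PH (difference -13.9 points, exact p = 0.333). That difference was -7.60 points without cluster 33, where the calves overlapped (exact p = 0.667), -6.43 without PH replicate 1 and -21.4 without PH replicate 2. The S share of the other T-cells was also lower in PH replicates 1 and 2, at 38.5% and 40.8% against 46.2% and 50.8% in CO. The G2/M share was 42.4% in CO and 40.5% in PH (exact p = 1).

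Against the other T-cells of the same calf, G1 calls were more frequent in subcluster 2 in 4 of 4 calves. The other T-cells had 7.69%, 9.97%, 15.4% and 9.87% of cells in G1 in the same order of calves. The S scores of subcluster 2 were lower in the same 4 calves, by 0.022 to 0.035, and so were the G2/M scores, by 0.00505 to 0.0396. Against single subclusters this was less uniform: the S score was higher in subcluster 2 in 1 calf against subcluster 1 and in 2 calves against subcluster 4. The gap in S score to the other T-cells averaged -0.0252 ± 0.00481 in CO and -0.0351 ± 0.000106 in PH (SD, n = 2 each). The calves did not overlap in this gap (two-sided exact permutation test, p = 0.333, adjusted p = 0.8). Its difference between PH and CO was -0.00985, and -0.00150 without cluster 33. The G1 share was below that of subcluster 1 in CO replicate 1 (12.5% against 20%, 1 of 5 cells) and below that of subcluster 4 in CO replicate 2 (22.2% against 23.1%). These scores were close to 0 in most cells, and 166 of the 198 cells of subcluster 2 called S or G2/M (83.8%) had a larger score below 0.1. A score above 0.2 was found in 7 of 268 cells of subcluster 2 (2.61%) and in 30 of 609 other T-cells (4.93%). The phase calls are therefore given as calls, without reading division from them.

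**Figure D2:**
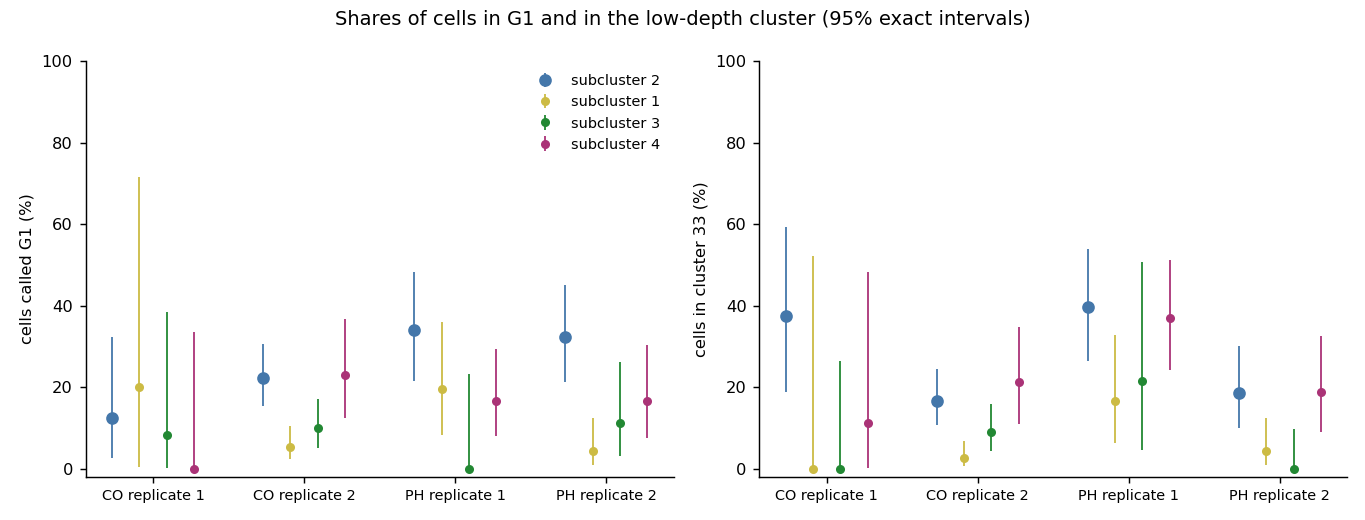
Percent of cells called G1 (left) and percent of cells in cluster 33 (right) in each of the 4 calves, by subcluster, where points are shares and bars 95% exact binomial intervals that cover counting error only. In subcluster 2 the G1 share ran from 12.5% in CO replicate 1 to 34.0% in PH replicate 1, and the share in cluster 33 was highest in CO replicate 1 (37.5%) and PH replicate 1 (39.6%).

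Expression was deposited as ln(corrected count + 1). SCTransform, a method meant to remove the effect of depth, gives the corrected count as the UMIs a cell of typical depth would have shown. The corrected total of a cell still differed: its calf medians in subcluster 2 averaged 5751 ± 126 in CO and 5332 ± 49.5 in PH (SD, n = 2 each). Within calves its median was below that of the other T-cells in 4 of 4 calves, at 0.937 to 0.988 times. In subcluster 2, 11913 rows were above 0 in some cell, and 1388 of them in exactly 1 cell. A value above 0 was found in at least 5% of the cells for 6296 rows, in at least 50% for 651 rows and in every cell for 103 rows. Of all values in subcluster 2, 90.7% were 0, and 54.1% of those above 0 were a corrected count of 1. The correction can add counts to shallow cells, and more genes after correction than before were found in 41.7%, 32.5%, 60.4% and 67.7% of the cells of CO replicates 1 and 2 and PH replicates 1 and 2, against 3.85%, 18.3%, 44.2% and 55.9% of the other T-cells.

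Few rows set subcluster 2 apart by being high. A row was counted for a subcluster where its mean was at least 0.25 ln units away from that of the other T-cells in each of 3 calves (CO replicate 2, PH replicates 1 and 2, which had at least 10 cells of every subcluster). Of 6328 rows, 8 were higher and 71 lower in subcluster 2. In subcluster 1 the counts were 87 higher and 17 lower, in subcluster 3 they were 50 and 16, and in subcluster 4 they were 37 and 48. At 0.5 ln units, 1 row was higher and 11 were lower in subcluster 2. In subclusters 1, 3 and 4, 22, 13 and 9 rows were higher and 2, 3 and 11 lower, so that subcluster 4 had as many lower rows. Lower by 1 ln unit were 0 rows in subcluster 2 and 0, 2 and 0 rows in subclusters 1, 3 and 4. Without cluster 33, 15 rows were higher and 85 lower in subcluster 2 by 0.25, still the fewest higher rows and the most lower rows of the 4 subclusters.

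A row that was above each other subcluster by 0.25 in each of these calves was found 1 time for subcluster 2, and 31, 23 and 13 times for subclusters 1, 3 and 4. Rows below each other subcluster by 0.25 numbered 5 for subcluster 2, against 2, 3 and 14, and without cluster 33 they numbered 12 for subcluster 2 and 12 for subcluster 4. By this measure subcluster 2 did not lead on lower rows. At any size, 1053 of 6296 rows (16.7% of the rows tested) were higher than in the other T-cells in each of the 4 calves, and 785 (12.5%) were lower. These 6296 rows, from which the leading rows below also came, were kept by their values in subcluster 2 alone. Rows nearly absent there could thus not be counted as lower. The 6328 rows of the counts by size were kept by their values in all T-cells. All these counts describe the clustering and are not tests.

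**Figure D3:**
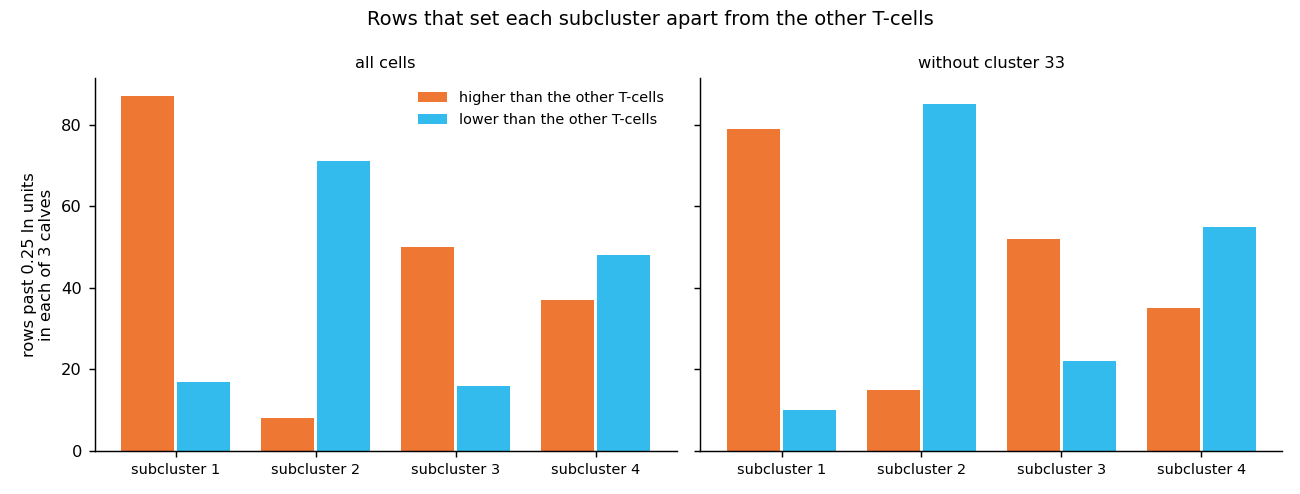
Number of rows (of 6328) whose mean was higher or lower in a subcluster than in the other T-cells by at least 0.25 ln units in each of 3 calves, with all cells (left) and without cluster 33 (right). Subcluster 2 had 8 higher and 71 lower rows with all cells, and 15 and 85 without cluster 33.

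The row with the largest difference that held in all 4 calves was high in both subclusters called CD4+. Its mean in subcluster 2 was 2.28 in CO replicate 1, 2.88 in CO replicate 2, 1.91 in PH replicate 1 and 2.14 in PH replicate 2 (ln units), with a value above 0 in 87.5%, 97.6%, 79.2% and 89.2% of the cells. In the other T-cells it was 0.89, 1.47, 1.28 and 1.21. In subcluster 1 it was 1.79, 2.41, 2.17 and 1.94, and in subcluster 3 it was 0.21 to 0.34. The row thus separated subcluster 2 from subcluster 3 more than from subcluster 1, and in PH replicate 1 it was higher in subcluster 1. The next such row had means of 1.43, 1.30, 1.01 and 1.14 in subcluster 2 against 0.88, 0.57, 0.66 and 0.66 in the other T-cells.

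Among the rows that were low, the first had means of 0.21, 0.07, 0.12 and 0.12 in subcluster 2 against 1.44, 1.04, 1.18 and 0.96 in the other T-cells. It was as low in subcluster 1 (0 to 0.20) and high in subcluster 4 (1.69 to 2.79). The second had means of 0.39, 0.48, 0.32 and 0.36 against 1.07, 1.26, 1.26 and 1.19. Of the 20 leading higher rows, 17 were above subcluster 1, 19 above subcluster 3 and 15 above subcluster 4 in every calf. Of the 20 leading lower rows, 18, 20 and 18 were below these subclusters in every calf. Both sets of rows were picked by their difference from subclusters 1, 3 and 4 pooled in the same cells. Such counts therefore largely follow from the choice of rows. CO replicate 1 had 5 cells of subcluster 1 and 9 of subcluster 4.

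The profile of subcluster 2 over all rows was alike between calves. Profiles were set as the mean of each row minus its mean over all T-cells of the calf, over 6328 rows. Between the subcluster 2 cells of different calves r was 0.39 to 0.73 (6 pairs), and between subcluster 2 of 1 calf and subcluster 1, 3 or 4 of another it was -0.52 to -0.10, -0.28 to 0.04 and -0.28 to 0.02. The lowest values for subcluster 2 were those with CO replicate 1, which has 24 cells. These are correlations across rows, which are not independent, and the clusters were made from the expression of the same cells. Each profile was taken against the mean of all T-cells, so the deviations of the 4 subclusters of a calf balance. Values below 0 between different subclusters follow in part from this. The r of subclusters 1, 3 and 4 with themselves between calves was not computed.

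Each cell was then set against the 4 subcluster profiles made from the other calves. Of the 268 cells, 211 (78.7%) were nearest to subcluster 2. By calf this was 13 of 24 (54.2%), 104 of 126 (82.5%), 40 of 53 (75.5%) and 54 of 65 (83.1%). The remaining cells were nearest to subcluster 1 (35 cells), subcluster 4 (14) or subcluster 3 (8). The order of these neighbours rested on the shallow cells behind the profiles: with profiles made without cluster 33, 20 cells were nearest to subcluster 4, 17 to subcluster 1 and 3 to subcluster 3. The share nearest to their own profile was 86.4%, 83.2% and 79.1% for the cells of subclusters 1, 3 and 4. With profiles made without cluster 33 it was 84.4%, 91.9% and 90.8%, against 85.1% for subcluster 2. The clusters were made from the expression of these same cells, so such shares follow in part from the clustering. In CO replicate 1, the profiles of subclusters 1 and 4 rest on 5 and 9 cells.

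The profile of subcluster 2 also drew the shallow cells of the other subclusters. Of the 67 cells of cluster 33 in subclusters 1, 3 and 4 of these calves, 39 (58.2%) were nearest to subcluster 2. By subcluster this was 11 of 13, 13 of 13 and 15 of 41 cells. With profiles made without cluster 33, 5 of the 67 cells (7.46%) were nearest to subcluster 2, and its own cells nearest to it numbered 228 of 268 (85.1%). The cells of cluster 33 in subcluster 2 stayed nearest to it in 52 of 63 cases with those profiles.

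**Figure D4:**
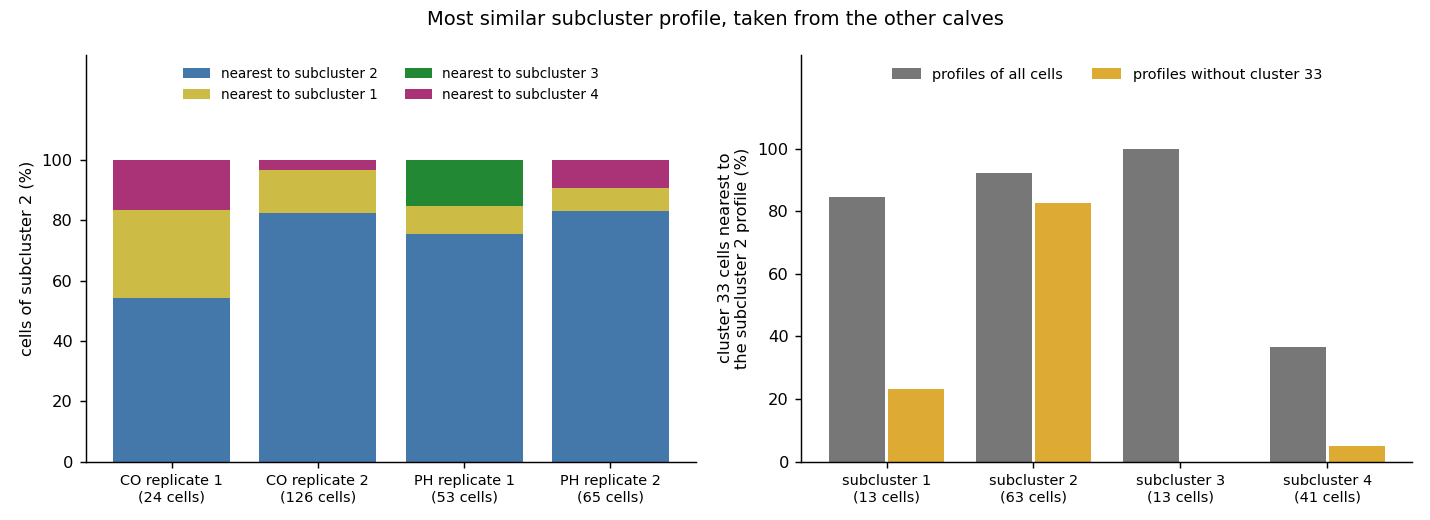
Percent of the cells of subcluster 2 nearest to each subcluster profile, by calf (left), and percent of the cells of cluster 33 nearest to the profile of subcluster 2, by the subcluster they belong to and by how the profiles were made (right). Of the cells of subcluster 2, 54.2% in CO replicate 1 and 75.5% to 83.1% in the other calves were nearest to their own profile.

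The comparison of CO and PH within subcluster 2, which asks how these T-cells differed in hypertensive vessels, was fitted to the calf means of each row with limma (2 CO against 2 PH calves). PH replicate 3 had no cells and did not enter. At a Benjamini-Hochberg adjusted p of 0.05, 0 of 6296 rows (0%) were called, and the smallest adjusted p was 0.376. At an unadjusted p under 0.05, 55 rows were higher and 407 lower in PH. The calves did not overlap in 497 rows higher in PH (7.89%) and in 1810 rows lower in PH (28.7%). The median difference over rows was -0.027 ln units, the 5th to 95th percentile ran from -0.18 to 0.08, and 7 rows differed by over 0.5. In cells of middle depth 0 rows were called, with 40 higher and 223 lower at an unadjusted p under 0.05. Those are in all fewer rows than this threshold lets through where no row differs.

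Rows lower in PH were the majority in 15 of 15 alternatives. Among these, the replicate block and the limma options could not change the differences, so their agreement was fixed in advance. The share of rows lower in PH moved with the calves, cells and scaling used, from 50.6% to 76.5%. Of the rows tested, 69.2% were lower in PH, a share that was 61.0% in cells of middle depth and 50.6% after quantile normalization, which gives all calves the same distribution of values. With quantile normalization 220 rows were higher and 230 lower at an unadjusted p under 0.05. PH also had the shallower cells of subcluster 2 (2899 against 5699 UMIs), a gap that was smaller without cluster 33 (a difference of -792.5 UMIs in place of -2800). Without cluster 33, 68.7% of the rows were lower in PH, with 55 higher and 284 lower at an unadjusted p under 0.05 and 0 called by limma.

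The rows with the largest differences without overlap show how much single calves carried. The largest rise had means of 0.82 and 0.55 in CO replicates 1 and 2 and of 2.34 and 0.85 in PH replicates 1 and 2 (ln units, limma adjusted p = 0.86). PH replicate 1 stood apart there, while PH replicate 2 was level with CO replicate 1. The next rise had 1.97 and 1.90 in CO and 2.98 and 2.26 in PH, a difference of 0.68 ± 0.25 (SE, limma adjusted p = 0.54).

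The largest fall without overlap came from 1 calf (a row that differed by -1.22 had calves that overlapped). The row had a value above 0 in 97 of 126 cells of CO replicate 2 and in 1 of 24 cells of CO replicate 1. It was 0 in all 53 and 65 cells of PH replicates 1 and 2 (limma adjusted p = 0.86). In the other T-cells it was above 0 in 282 of 311 cells of CO replicate 2 and in 2 of 26 of CO replicate 1, and in 0 of 104, 152 and 16 cells of the PH calves. The row thus marked CO replicate 2 across its T-cells, in and outside subcluster 2.

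The second largest fall was the leading row of subcluster 2 described above. Its difference between PH and CO was -0.55 ± 0.25 ln units (SE, limma adjusted p = 0.63). Its gap to the other T-cells was 1.39 in CO replicate 1, slightly more in CO replicate 2, and 0.63 and 0.92 in PH, so that the row separated subcluster 2 less in both PH calves, a difference of -0.62 ± 0.32 (SE, limma adjusted p = 0.95). The leading lower row differed by -0.027 ± 0.060 between PH and CO (limma adjusted p = 0.94).

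Rows seen in some calves only were few. A row was counted where it was above 0 in at least 20% of the cells of subcluster 2 in the calves named and in under 5% in each other calf. This gave 21 rows for CO replicate 1 alone, 2 for CO replicate 2 alone and 0 for each of PH replicates 1 and 2. It gave 1 row for both CO calves together and 0 for every other pair. With 24 cells in CO replicate 1, 20% is 5 cells.

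Whether PH and CO differed otherwise in subcluster 2 than in the other T-cells was tested on the gap within each calf. With limma, 0 of 6296 rows (0%) were called and the smallest adjusted p was 0.945. At an unadjusted p under 0.05, 207 rows had a higher and 75 a lower gap in PH. With subcluster 1 alone as the reference the counts were 125 higher and 138 lower, and on the log2 scale with a pseudocount of 1 they were 190 and 142. Except on the log2 scale, these are in all fewer rows than this threshold lets through where no row differs. The calves did not overlap in 1226 rows with a higher gap (19.5%) and 791 with a lower gap (12.6%), and the median was 0.016 ln units. Against subcluster 1 alone, 938 rows (14.9%) had a higher and 1031 (16.4%) a lower gap without overlap. Higher gaps thus outnumbered lower gaps with the pooled reference and not with this one. Calves without overlap give an exact permutation p of 0.333, the smallest possible here, so these counts are not read as a result. Of all rows, 40.3% had a lower gap in PH, or 49.3% against subcluster 1.

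**Figure D5:**
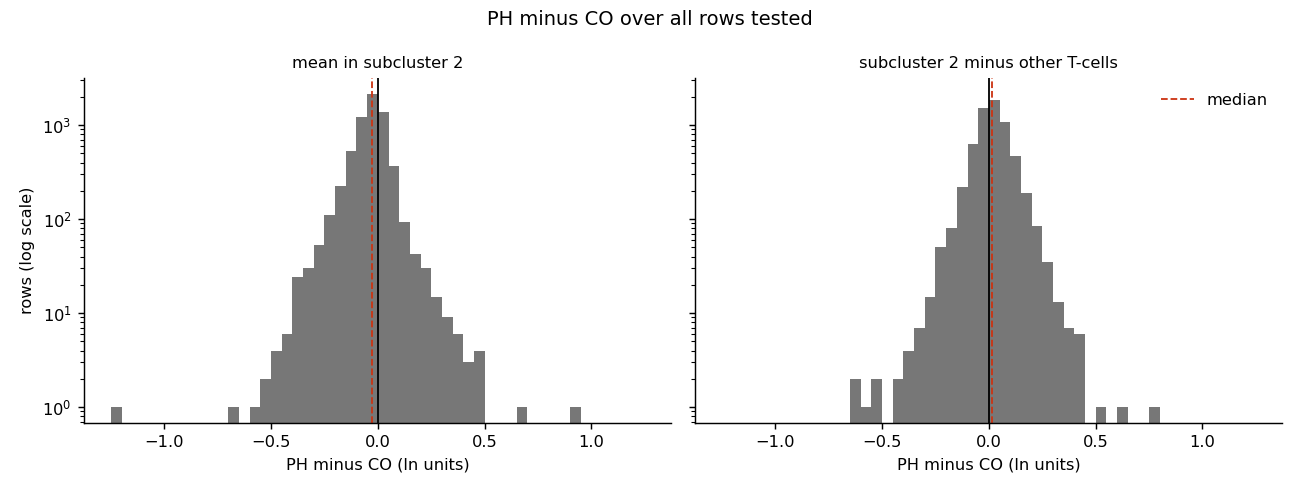
Number of rows (log axis) by their difference between PH and CO (ln units), for the mean in subcluster 2 (left) and for its gap to the other T-cells (right), with the median as a dashed line. The median was -0.027 on the left and 0.016 on the right, and few rows lay beyond 0.5 on either side.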

How the data were processed

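The data are single-cell RNA sequencing of dPAs (10x Genomics 3' libraries). Per the methods and labels, the authors filtered the cells, selected T-cells by general T-cell markers, and applied SCTransform and clustering. Cell Ranger 2.1.1, Seurat 4.0 and the build ARS-UCD1.2 come from the submitters' processing notes. How cells were filtered and how doublets were treated is not given in the sources used here. Doublets were not called again. Expression was deposited in natural log units, as ln(corrected count + 1). UMI counts and counts of genes per cell were deposited without normalization. The mitochondrial percent, also given as a fraction of UMIs, was deposited as the authors computed it. The corrected totals, corrected gene numbers and cell cycle scores are scores the authors deposited, and phases and clusters are their calls. The subcluster equals the authors' clustering at resolution 0.6, named for the RNA assay, in 877 of 877 cells, and the clustering at resolution 1.4 is named for SCTransform. Without UMI counts for single rows (not analysed here), neither a count model nor thinning to equal depth was used. The in vitro experiments were not analysed here.

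Cells were joined to calves by the calf named with each cell, with 0 matrix columns left without a calf, and groups and replicate numbers came from the labels. Rows were kept where at least 5% of subcluster 2 cells had a value above 0. For the counts of rows by size and the profiles, at least 5% of all T-cells had to have a value above 0. Calf means (at least 10 cells) were fitted with limma 3.58.1 (lmFit, eBayes with trend and robust, R 4.3.3), CO against PH without covariates, with Benjamini-Hochberg adjusted p. The same fit was made on subcluster 2 minus the other T-cells of the calf. Other measures were compared over calves with two-sided exact permutation tests (Python 3.11.15, NumPy 2.4.6), and shares have 95% Clopper-Pearson intervals (SciPy 1.17.1). A count of 0 is given with the limit of 3 counts. The fits were also run on simulated calf means with independent normal noise for each row. That setting differs from these data, so it does not show how the fits behave on them.

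With no gene names, no gene was named, and by rule at most 2 rows in each direction are given by their values: for leading rows those with the largest smallest difference over calves, and for CO against PH those with the largest difference without overlap of calves. The planned marker lists gave no result for want of names. The members, rules and tests were chosen with earlier results of these data known. Alternatives were leaving out each calf, the replicate block, other scales, filters, weights, references and limma options, quantile normalization, cells of middle depth (25th to 75th percentile of UMIs) and cells not called G1. The values without cluster 33, the counts of rows by size and the nearest profiles were added after the data had been seen.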

Additional observations from a re-analysis of the deposited data

How the results depend on the processing

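With 2 CO and 2 PH calves, subcluster 2 sets narrow limits: CO rests on 126 cells of 1 calf and 24 of another, and no exact test over these calves can go below 0.333. Of 188 alternative values, 153 kept their direction or size, 17 changed direction and 18 counts moved, the cause of which was not tested unless stated. The 153 include values that could not move, since the replicate block and the limma options leave differences between group means unchanged. Rows called between CO and PH (0) numbered 1 to 238 when 1 calf was left out, with 238 without CO replicate 2, where CO is 1 calf of 24 cells assumed to vary like PH. They numbered 3 and 1 on the log2 scale with pseudocounts of 0.1 and 1, 4 after quantile normalization and 4 with cell numbers as weights. With the replicate number as a block 33 rows were called. Deviations from the group mean had r = 0.27 between same-numbered calves over 6296 rows. With 2 calves in each group such deviations mirror each other, so r was -0.27 between calves of unlike number by construction. The value of 0.27 therefore does not show that same-numbered calves go together. With 2 pairs and no shared origin in the labels they share only a number, and the block changed no other call. For the gap to the other T-cells, rows called (0) numbered 0 to 57 without 1 calf, with 9 when PH replicate 1 was left out and 57 when PH replicate 2 was, and 1 without cluster 33. Rows higher in subcluster 2 in every calf (1053) numbered 1328 to 1810 over 3 calves, where fewer calves must agree, and 650 at middle depth, and those lower (785) 989 to 1185 and 515. Rows higher by 0.25 (8) numbered 15 without cluster 33, and cells of cluster 33 in other subclusters nearest to subcluster 2 (39) numbered 5. The mitochondrial difference (0.508 points) was -0.359 to 1.38 without 1 calf and -0.570 at middle depth, that of the G2/M score (-0.0092) was 0.00095 with means over cells, and that of the G2/M share (-1.85 points) was -8.51 to 4.81 without 1 calf. Of the differences between PH and CO in the gap to the other T-cells, UMIs (-494) were -1186 to 199 without 1 calf, 1420 with means, 41.2 with equal weight of subclusters and 679 without cluster 33. Genes (96) were -0.25 to 192, mitochondrial percent (0.058) was -0.0871 to 0.203, with -0.418 for means and -0.111 at equal weight, the corrected total (116) was -20.8 to 253, and the G2/M score (-0.012) was -0.0293 to 0.00524, with 0.0023 for means.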
